A study of Mus musculus with 4 samples.

Results

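Transcripts of oxidative phosphorylation were compared between γδ T cells of mouse fat that did and did not express a reporter of the transcription factor PLZF. Genes were chosen by name alone: NADH dehydrogenase subunits (Nduf followed by a, b, c, s or v), succinate dehydrogenase subunits, Uqcr genes, cytochrome c oxidase genes Cox4 to Cox8, Atp5 genes, Cyc1 and Cycs. The name rule found 97 of the 46799 deposited rows, a row being one locus with its gene names. By respiratory complex, 36 rows belonged to complex I, 5 to complex II, 9 to complex III, 20 to complex IV and 16 to complex V. Cytochrome c, Cycs, had 1 row. A further 7 rows were complex I assembly factors (Ndufaf genes), and 3 carried an Atp5 name without being a listed subunit of the synthase (Atp5s, Atp5sl and the pseudogene Atp5l-ps1). Ndufa4 and Ndufa4l2 are counted here in complex IV, where the Ndufa4 protein is found despite its name.

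Epididymal fat of male C57Bl/6 mice with the PLZFGFP reporter gave the cells, by sorting. In these mice GFP marks expression of PLZF, the product of Zbtb16. The animals were 16 to 22 weeks old, and no label names a treatment. All 4 column names also carry the tag SFD, which no label explains. There were 2 libraries of PLZF+ cells, in the columns A7 and B7, and 2 of PLZF- cells, in A6 and B6, each made by SMARTseq2 from a pool of 10 mice. SMARTseq2 makes full-length cDNA from small numbers of cells. All cells in the comparison carried the reporter, and no label tells whether both subsets were taken from the same animals. Each library is a pool, and the spread that enters a p-value is that of pools, not of single mice.

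Oxidative phosphorylation takes electrons from NADH at complex I and from succinate at complex II, and passes them through coenzyme Q, complex III and cytochrome c to oxygen at complex IV. Complexes I, III and IV pump protons across the inner mitochondrial membrane, and complex V, the ATP synthase, uses their return to make ATP. Most subunits are encoded in the nucleus and a few in mitochondrial DNA, among them the catalytic centre of complex IV. The complex II subunits are all nuclear. T cells draw on this pathway to differing degrees as they rest, are activated or settle in a tissue.

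The 2 PLZF- libraries were shallower. Estimated reads were 722439 in A6 and 950755 in B6, against 1790925 in A7 and 1969570 in B7. The 8 Zbtb16 rows were higher in PLZF+ libraries, which is a check of the sort and not a finding. Of the γδ T cell markers, 4 rows were found, all of chains that every T cell shares (Cd3e, Cd3d, Cd3g and Cd247). All 4 were higher, with summed normalized counts of 762 and 1197 in PLZF- and 2371 and 2592 in PLZF+ libraries. A row of the δ receptor locus with Trdd2, outside that list, had 656 and 844 in PLZF- and 2630 and 2525 in PLZF+ libraries. Its log2 difference was 1.79 (adjusted p = 3.4e-05, limma). A row that joins Tcrd with TCR alpha names had 20.2 and 13.4 against 0.619 and 0.558. The other Tcrd rows were at 0 in all 4 libraries. Of 4 tested rows marking natural killer and innate lymphoid cells, 4 were lower in PLZF+ libraries (summed 3300 and 2944 in PLZF-, 183 and 126 in PLZF+). Of 4 plasmacytoid dendritic cell rows, 3 were lower (545 and 300 against 31.0 and 39.6), and Siglech was at 0 in both PLZF+ libraries. The 4 myeloid rows summed to 211 and 104 in PLZF- and to 11.2 and 0.558 in PLZF+ libraries. Most of the PLZF- sum was of Itgax (191 and 75.6). In the same PLZF- libraries Lyz2 had 20.2 and 6.10, Cd68 0 and 22.0, and Csf1r was at 0 in both. The 3 αβ T cell rows found (Cd4, Cd8a and Cd8b1) summed to 27.0 and 20.7 in PLZF- and to 0 in both PLZF+ libraries, and the 4 endothelial rows to 113 and 117 against 160 and 153. Most of the endothelial sum was of Pecam1, whose larger row had 79.3 and 106 against 132 and 137. Kdr had 13.5 and 1.22 against 0 in both PLZF+ libraries, and Cdh5 had 1.22 in B6 alone. B cell and stromal markers were at 0 in all 4 libraries, as were the adipocyte genes Adipoq, Plin1 and Cidec. The part of these differences in depth and in cell markers in what follows was not tested. In such bulk libraries, fewer cells of a type and less RNA per cell cannot be told apart.

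Of the 97 rows, 90 had a value in at least 1 library. The limma test was run on log2(normalized count + 1) for 9197 named rows averaging 10 or more normalized counts, of which 80 were in the set. The mean filter kept 35 of 36 complex I rows, all of complexes II and III, 12 of 20 in complex IV and 14 of 16 in complex V. At a Benjamini-Hochberg adjusted p under 0.05, 0 of the 80 were called higher in PLZF+ cells and 0 lower, while 2.6% and 4.8% of all tested rows were called in those directions. At an unadjusted p under 0.05, limma put 10 of the 80 (12.5%) higher, against 8.48% of all tested rows, and 0 lower, against 11.8%. The authors' deposited table of Cuffdiff results gave a q under 0.05 for 0 of the 80, against 4.54% of all tested rows. On data simulated for this comparison over 9197 rows, the fit called 30% of rows changed 2-fold and 94% of those changed 4-fold. The simulation gave every row 1 dispersion, estimated from rows of high counts only. The tested rows of the set had a median mean normalized count of 56.0, so these shares do not give the power for the set.

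Although no single row passed, most of the set lay on one side. Both PLZF+ libraries lay above both PLZF- libraries in 45 of the 80 rows (56.2%), against 24.1% of all tested rows. Both lay below in 3 (3.75%), Sdha, Ndufaf1 and Ndufaf7, against 27%. The 2 subsets overlapped in the other 32. The log2 difference was above 0 in 72 of 80 rows (90%), against 48.7% of all tested rows, and above 1 in 21, against 12.7%. The median log2 difference was 0.62 over the set and -0.02 over all tested rows. The rows share the same 4 libraries and are not independent, so these counts describe the set and carry no p-value. Some rows, among them Uqcr11, Ndufs5 and Atp5l, had a PLZF- mean under 10 and passed the filter only through their PLZF+ values. Ndufaf1 passed only through its PLZF- values. For 12 of the 80 the 95% interval lay under a log2 difference of 1, against 4383 of all 9197 tested rows.

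**Figure D1:**
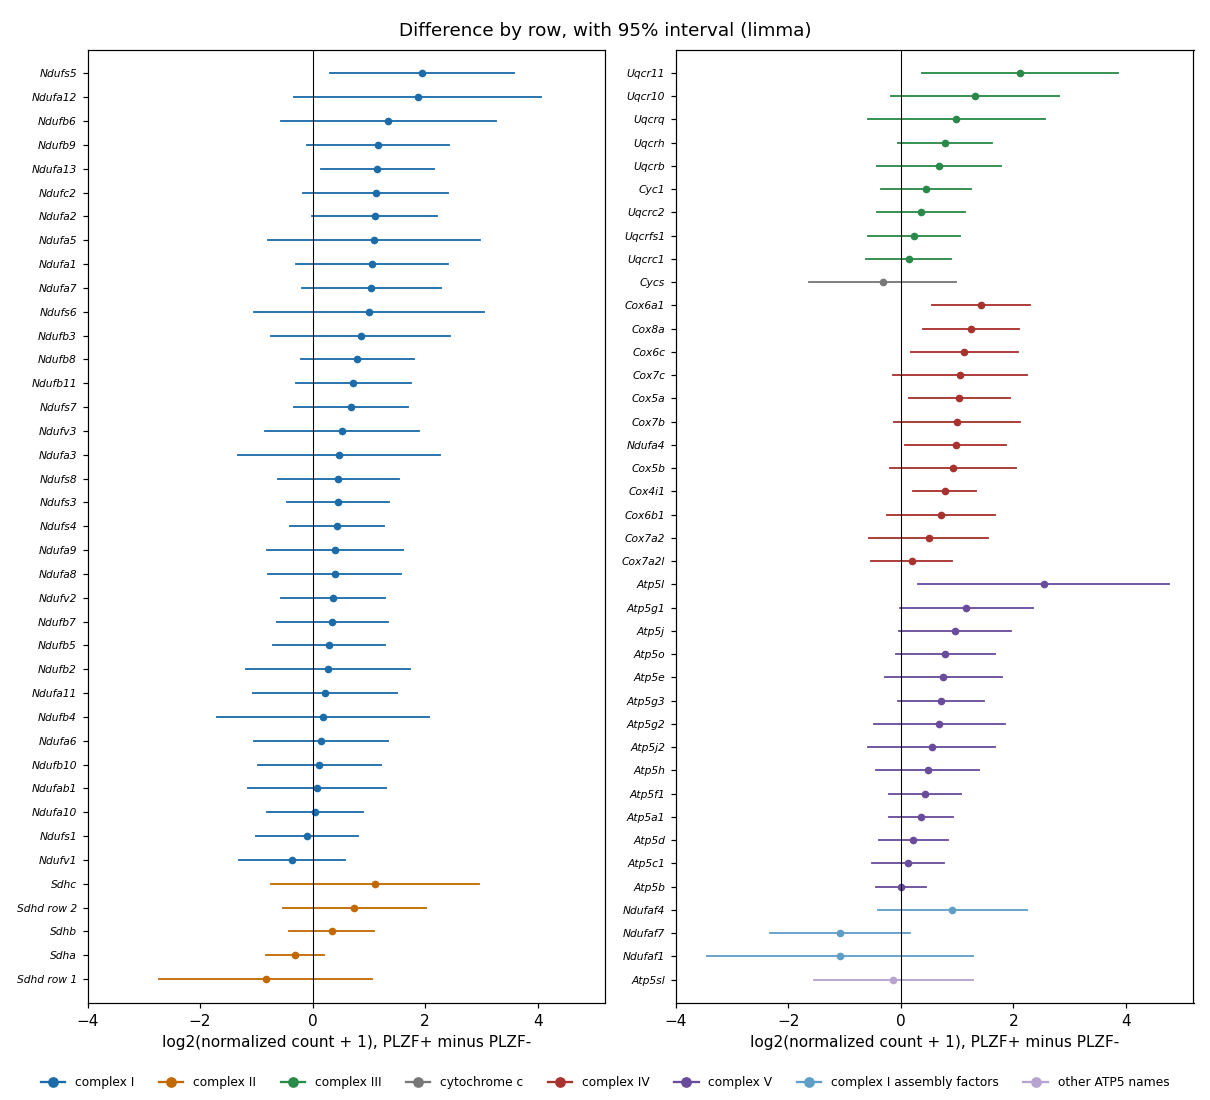
Log2 difference (PLZF+ minus PLZF-) of 79 of the tested rows, as points with 95% limma intervals, coloured by complex. Of these points, 71 lie right of 0, and the intervals of 10 rows exclude 0 before adjustment.

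Complex IV had the highest median difference of the 5 complexes, also with each library left out in turn. The median log2 difference was 0.47 in complex I, 0.34 in complex II, 0.68 in complex III, 0.99 in complex IV and 0.61 in complex V. Without A6 the complex II median was -0.28 and without A7 it was 0.51, so neither its direction nor its rank was stable, and without A6 the medians of complexes I, III and V were 0.28, 0.45 and 0.39. Differences between complexes were not tested. On a per-length scale, the FPKM summed over the complex IV rows was 1378 in A6, 1508 in B6, 2895 in A7 and 2512 in B7. Those of complex I summed to 1372, 1806, 2629 and 2376 in the same order, and those of complex III to 545, 717, 959 and 1095. The complex V sums were 1428, 1552, 2394 and 2110. In these 4 complexes both PLZF+ libraries lay above both PLZF- libraries, with ratios of the group means of 1.87 for complex IV, 1.57 for complex I, 1.63 for complex III and 1.51 for complex V. The complex II sums were 185, 289, 227 and 252, which overlapped between the subsets with a ratio of 1.01. Together the 97 rows took 0.412% of the normalized counts of named rows, the rRNA precursor Rn45s left out, in A6, 0.533% in B6, 0.676% in A7 and 0.686% in B7.

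**Figure D2:**
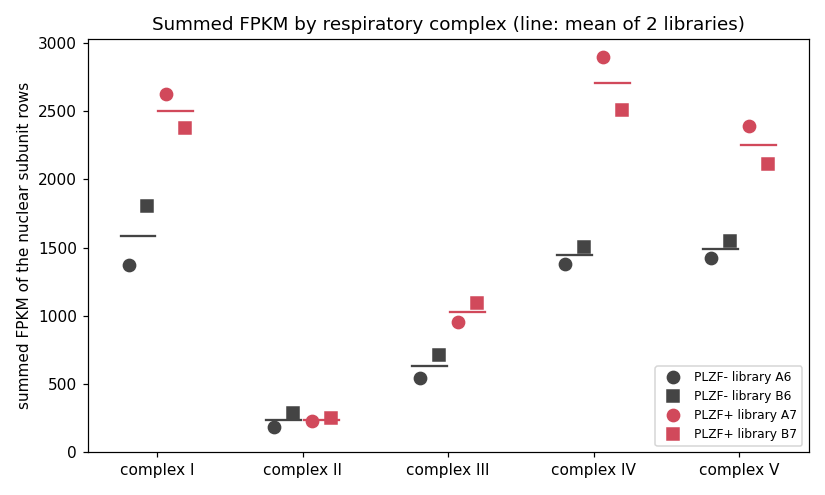
Summed FPKM of the rows of each complex (vertical axis) in each of the 4 libraries, with lines at the mean of the 2 libraries of a subset. Only complex II overlaps between subsets, and the complex IV sums run from 1378 and 1508 in PLZF- to 2895 and 2512 in PLZF+ libraries.

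The motifs of NRF1 and of the ETS family factor GABP are classically tied to nuclear genes of oxidative phosphorylation. RefSeq promoter windows (GRCm38.p6, 300 bases around the annotated start, most of them before it) were matched for 74 of the genes and searched on both strands for GCGCATGCGC (NRF1, the same on both strands) and CCGGAAGT (ETS). The NRF1 letters were in 7 of the 74 windows (9.46%) and in 1.07% of all 27025 gene windows. The ETS letters were in 5 (6.76%) and in 4.31% of all windows. Windows are shown for Cox6a1, Cox8a and Uqcr11, whose values are among those furthest apart between the subsets in complexes IV and III, and for Sdha, the only subunit with both PLZF+ libraries below both PLZF- libraries among the tested rows. Capitals mark the exact matches, and ACTTCCGG is the ETS motif read on the opposite strand.
Cox6a1 (chr5:115348909-115349208, minus strand): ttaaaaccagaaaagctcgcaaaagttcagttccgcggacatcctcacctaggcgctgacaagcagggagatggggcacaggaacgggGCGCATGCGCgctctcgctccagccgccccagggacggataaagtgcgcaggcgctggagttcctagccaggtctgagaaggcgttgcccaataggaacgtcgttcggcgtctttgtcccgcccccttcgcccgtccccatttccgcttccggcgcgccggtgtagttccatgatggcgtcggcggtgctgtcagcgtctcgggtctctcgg
Cox8a (chr19:7217567-7217866, minus strand): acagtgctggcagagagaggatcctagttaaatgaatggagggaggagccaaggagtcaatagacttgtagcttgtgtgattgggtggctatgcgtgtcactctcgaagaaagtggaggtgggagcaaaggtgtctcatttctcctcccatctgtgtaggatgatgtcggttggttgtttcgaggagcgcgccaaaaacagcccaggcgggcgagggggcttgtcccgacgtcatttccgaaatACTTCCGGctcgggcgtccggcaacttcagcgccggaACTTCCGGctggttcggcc
Uqcr11 (chr10:80406772-80407071, minus strand): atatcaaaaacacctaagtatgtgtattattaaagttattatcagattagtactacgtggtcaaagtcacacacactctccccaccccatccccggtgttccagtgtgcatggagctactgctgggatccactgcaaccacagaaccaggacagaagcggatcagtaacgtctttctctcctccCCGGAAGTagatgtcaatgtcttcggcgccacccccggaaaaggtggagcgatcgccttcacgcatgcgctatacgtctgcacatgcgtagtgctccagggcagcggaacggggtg
Sdha (chr13:74350191-74350490, minus strand): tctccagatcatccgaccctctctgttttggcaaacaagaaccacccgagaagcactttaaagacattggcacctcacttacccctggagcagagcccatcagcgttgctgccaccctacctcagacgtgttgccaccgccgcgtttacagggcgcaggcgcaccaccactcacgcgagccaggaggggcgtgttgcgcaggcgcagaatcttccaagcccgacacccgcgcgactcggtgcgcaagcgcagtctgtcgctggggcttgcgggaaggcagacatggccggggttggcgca
Cox6a1 held 1 NRF1 match, Cox8a 2 ETS matches and Uqcr11 1, and neither string was in the Sdha window. The windows shown do not stand for the set, since only 12 of the 74 (16.2%) held either string. Those of Uqcr10, Cox5a and Ndufa4, whose PLZF+ libraries also both lay above both PLZF- libraries, held neither. Tested genes with an NRF1 match had a median log2 difference of 0.68 (5 genes) and those without one 0.53 (60 genes). For the ETS string the medians were 0.78 (5 genes) and 0.53 (60 genes). A match is a string of letters in the window and not a measured binding site.

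Complex I had values above 0 in all 36 rows taken over the 4 libraries, and 0 of its 35 tested rows passed. Its nuclear core subunits carry the flavin and iron-sulfur centres and the quinone site, and 28 tested accessory subunits surround them. Accessory rows had a median log2 difference of 0.62, and all 28 were above 0, against 48.7% of all tested rows. In 17 the subsets did not overlap, with PLZF+ higher, against 24.1% of all tested rows. Of all tested rows from 600 to under 1000 bases, 49.1% lay this way. The core rows had a median of 0.45. The median transcript length was 674.5 bases in the accessory rows and 1312 in the core rows.

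Of the core, Ndufs7 lies beside the quinone site. It stood at 33.7 and 68.3 normalized counts in the PLZF- pair (A6, B6) and at 82.4 and 73.1 in the PLZF+ pair (A7, B7), with a log2 difference of 0.68 ± 0.47 (SE). Ndufv2, an iron-sulfur subunit, had 50.6 and 65.9 against 66.9 and 83.2 (0.36 ± 0.43). In both genes the PLZF+ values were the higher pair, and the intervals of both included 0. Ndufv1, which binds NADH and flavin, had 122 and 79.3 against 53.3 and 108 (-0.36 ± 0.44), where the 2 PLZF+ pools lay on either side of PLZF- library B6. Ndufs1, the largest iron-sulfur subunit, had 72.5 and 91.5 against 57.0 and 100 (-0.10 ± 0.42). Ndufs3 (0.45 ± 0.42) and Ndufs8 (0.46 ± 0.50) had log2 differences near the complex median.

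The smallest p-values in complex I were of small accessory subunits. Ndufs5 had 5.06 normalized counts in A6 and 14.6 in B6, and 34.7 in A7 and 38.5 in B7 (log2 difference 1.95 ± 0.76, adjusted p = 0.17, limma). Both PLZF+ libraries exceeded both PLZF- libraries by more than the PLZF- libraries differed, but 5.06 is the value of 3 reads in A6. Ndufa13, also known as GRIM-19, had 30.4 and 65.9 against 106 and 96.0 (1.15 ± 0.46, adjusted p = 0.18). Ndufa2 had 33.3 and 23.2 against 62.0 and 60.1 (1.11 ± 0.51, adjusted p = 0.25). In all 3 genes the subsets did not overlap. Per length, Ndufb7 was the most abundant complex I transcript, with 114 FPKM averaged over the 4 libraries, and its log2 difference in normalized counts was 0.35 ± 0.46. Mean FPKM ranged 17.6-fold over the tested complex I rows, the lowest being Ndufa11 at 6.49.

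Ndufc1, an accessory subunit below the filter, was added to those named after its values were seen. It had an estimated 2 reads over the 2 PLZF- libraries and 48 over the 2 PLZF+ libraries, a depth-corrected ratio of 9.95 (exact 95% interval 2.61 to 84.5). The interval covers counting error only, since PCR copies without molecular identifiers are not independent molecules.

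Of the complex I assembly factors, 3 of 7 were tested and none passed in limma (0 at an unadjusted p under 0.05). Ndufaf7, a mitochondrial methyltransferase, stood at 40.5 and 50 normalized counts in the PLZF- pair and at 18.0 and 24.0 in the PLZF+ pair (log2 difference -1.08 ± 0.57, adjusted p = 0.32). Ndufaf1 had 13.5 and 15.9 against 3.10 and 12.3 (-1.08 ± 1.10), and Ndufaf4 16.9 and 19.5 against 31.6 and 39.1 (0.92 ± 0.61). The first 2 lay in the opposite direction to most complex I subunits and Ndufaf4 in the same one. Ndufaf2, Ndufaf3, Ndufaf5 and Ndufaf6 were under the filter and overlapped between the subsets.

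In complex II, which also works in the citric acid cycle, the rows pointed in both directions. Sdha, the flavoprotein that oxidizes succinate, stood at 321 and 370 normalized counts in the PLZF- pair and at 276 in each PLZF+ library (log2 difference -0.32 ± 0.24, 95% interval -0.83 to 0.20). Both PLZF+ values lay below both PLZF- values, and the interval was narrow enough to exclude a 2-fold higher level. Sdhb, the iron-sulfur subunit, had 103 and 93.9 against 110 and 141 (0.34 ± 0.35) and did not overlap, with PLZF+ higher. Sdhb and Sdha had similar mean FPKM, 81.6 and 79.5, over the 4 libraries. The membrane anchor Sdhc had 5.06 and 19.5 against 18.6 and 28.5 (1.11 ± 0.86), which overlapped. Sdhd, the other anchor, was deposited as 2 overlapping rows whose reads may be split between them. Its first row had 21.7 and 35.1 against 42.0 and 4.98 (-0.84 ± 0.88) and its second 23.9 and 102 against 68.8 and 101 (0.74 ± 0.59). The pools of one subset differed as much as the subsets in both rows, so no direction can be read for Sdhd.

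In complex III the small subunits had a higher median difference than the core, although 0 of 9 rows passed. The 5 small subunits (Uqcr10, Uqcr11, Uqcrb, Uqcrh and Uqcrq) had a median log2 difference of 0.99. In all 5 both PLZF+ libraries were above both PLZF- libraries, against 24.1% of all tested rows and 72.8% of those under 600 bases. The 4 rows that hold the core proteins, the Rieske iron-sulfur protein and cytochrome c1 had a median of 0.29, and 1 of them, Cyc1, did not overlap. The difference between these groups was not tested. Their transcripts also differed in length, with 434 to 535 bases in the small subunits and 1363 to 1896 in the other 4 rows. The part of length in the 2 medians was not tested. Uqcr11 stood at 6.75 and 6.10 normalized counts in the PLZF- pair, 4 to 5 reads each, and at 33.4 and 29.0 in the PLZF+ pair (2.12 ± 0.81, adjusted p = 0.16, limma). Its PLZF- mean was 6.42, so the row passed the filter of 10 only through its PLZF+ values. The closeness of its PLZF- pools rests on those few reads. Uqcr10 had 11.8 and 12.2 against 35.3 and 27.9 (1.32 ± 0.69, adjusted p = 0.31). Uqcrh, the hinge protein that helps cytochrome c dock and the most abundant complex III transcript at 217 FPKM, had 54.0 and 86.6 against 115 and 122 (0.78 ± 0.39).

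The catalytic and core rows of complex III sat closer together. Cyc1, cytochrome c1, had 69.2 and 98.8 against 121 and 106 normalized counts (log2 difference 0.45 ± 0.37), and its row also names a second transcript. Uqcrfs1, the Rieske protein, had 97.9 and 124 against 94.8 and 176 (0.23 ± 0.38). Uqcrc1 had 140 and 218 against 144 and 257 (0.13 ± 0.35). In Uqcrfs1 and Uqcrc1 the B library was higher than the A library in both subsets, and the subsets overlapped. Uqcrc2 had 89.4 and 117 against 106 and 162 (0.35 ± 0.36), with the same order of libraries. Cycs, which carries electrons from complex III to complex IV, had 30.4 and 35.4 against 35.3 and 19.0 (-0.33 ± 0.60) and overlapped.

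In complex IV all 12 tested rows had a log2 difference above 0, against 48.7% of all tested rows. Both PLZF+ libraries lay above both PLZF- libraries in 10 of 12, the exceptions being Cox7a2 and Cox7a2l. Of all tested rows 24.1% lay this way, of those under 600 bases 72.8%, and of those from 600 to under 1000 bases 49.1%. The complex IV rows had a median length of 626 bases. None of the 12 passed in limma, and 6 had an unadjusted p under 0.05 with PLZF+ higher, against 8.48% of all tested rows. Cox6a1, the form of subunit VIa found in most tissues, stood at 45.5 and 46.3 normalized counts in the PLZF- pair and at 149 and 104 in the PLZF+ pair. Its log2 difference was 1.42 ± 0.40, with the smallest adjusted p of the set (0.0501, limma). The PLZF+ pools differed more from each other than the PLZF- pools did, and both were more than double either PLZF- value. The authors' deposited table gave Cox6a1 a q of 0.116. Its adjusted p in limma was 0.013 to 0.047 under 6 alternative settings and 0.052 to 0.53 under the others, with 0.53 without A7 and 0.26 without B7. Cox8a had 69.2 and 43.9 against 144 and 122 (1.25 ± 0.40, adjusted p = 0.082), also without overlap. Cox4i1, a subunit at which ATP acts as a regulator and the most abundant transcript of the whole set at 378 FPKM, had 181 and 178 against 323 and 292 (0.77 ± 0.26, adjusted p = 0.10). Its 2 PLZF- pools agreed closely, as did its 2 PLZF+ pools.

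Of the other complex IV rows with an unadjusted p under 0.05, named after their values were seen, Cox6c had 38.8 and 73.2 against 146 and 94.9 normalized counts (log2 difference 1.13 ± 0.44). Cox5a, which with Cox4i1 forms an early assembly module, had 45.5 and 65.8 against 91.1 and 141 (1.04 ± 0.42). Ndufa4 had 55.7 and 43.9 against 106 and 89.8 (0.97 ± 0.41). None of these 3 overlapped between subsets, and their adjusted p-values were 0.17, 0.18 and 0.20 (limma).

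Several complex IV subunits have forms restricted to certain tissues, and here the widely expressed form was the one detected. Cox4i2, Cox6b2, Cox7b2, Cox8b, Cox8c and Ndufa4l2 were at 0 in all 4 libraries, where 3 reads would be 5.06 normalized counts in A6, 3.66 in B6, 1.86 in A7 and 1.67 in B7. The heart and muscle form Cox6a2 was at 3.37 and 1.22 normalized counts in the PLZF- pair and at 0 in the PLZF+ pair, all under the value of 3 reads. Cox7a1, the other heart and muscle form, had 1.24 in A7 and 0 elsewhere. The muscle genes Ckm, Acta1 and Myh4 and the brown fat genes Ucp1 and Cidea were at 0 in all libraries. Cox6b1, the partner of Cox6b2, had 38.8 and 65.9 against 91.7 and 76.5 (log2 difference 0.72 ± 0.44). Cox7a2 had 62.4 and 32.9 against 75.6 and 54.7 (0.49 ± 0.49). Cox7a2l had 130 and 235 against 224 and 178 (0.19 ± 0.33), and the PLZF+ pools lay between the PLZF- pools.

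In complex V the F1 part, the catalytic head with its central stalk, had the lowest median difference. Atp5b, the catalytic beta subunit and the most abundant synthase transcript at 236 FPKM, stood at 607 and 711 normalized counts in the PLZF- pair and at 608 and 718 in the PLZF+ pair. Its log2 difference was 0.01 ± 0.21, with a 95% interval of -0.44 to 0.45. The 2 subsets overlapped almost exactly, and within both the B library was the higher. Atp5a1, the alpha subunit, had 304 and 492 against 431 and 571 (0.36 ± 0.27) and overlapped. The 5 F1 rows were those of the alpha and beta subunits and of gamma, delta and epsilon of the central stalk. Their median was 0.22, and 1 of them, the small epsilon subunit Atp5e, did not overlap.

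The membrane ring and the group of peripheral stalk and other membrane subunits had higher medians than the F1 part. Their transcripts were also shorter, with median lengths of 718.5 bases for the ring genes and 713 for the peripheral stalk and other membrane subunits. The F1 rows had a median length of 1166 bases, and the part of length in these medians was not tested. The proton-carrying c-ring is encoded by 3 genes that make the same mature protein, and all 3 were higher in both PLZF+ libraries than in both PLZF- libraries. Of all tested rows 24.1% lay this way, and of those from 600 to under 1000 bases 49.1%. Atp5g1 had 20.2 and 25.6 against 58.8 and 46.3 (log2 difference 1.16 ± 0.55, adjusted p = 0.26, limma). Atp5g2 had 45.5 and 23.2 against 60.1 and 46.3 (0.68 ± 0.54), and Atp5g3 91.1 and 72.0 against 141 and 126 (0.71 ± 0.36). In Atp5g2 the lower PLZF+ pool was only just above the higher PLZF- pool. Among peripheral stalk and other membrane subunits the median was 0.67. In 3 of 6 the subsets did not overlap, with PLZF+ higher, against the same shares of 24.1% and 49.1%. Atp5l, subunit g, had 13.5 and 1.22 against 37.2 and 27.3 (2.54 ± 1.03, adjusted p = 0.19). Its value in B6 is 1 read. Atp5j, coupling factor 6 of the peripheral stalk, had 45.5 and 36.6 against 102 and 63.6 (0.97 ± 0.46, adjusted p = 0.27). Atp5k, subunit e and below the filter, was named after its values were seen: it had 1 estimated read in PLZF- and 26 in PLZF+ libraries, a ratio of 10.8 with an exact 95% interval of 1.77 to 442. Atp5l2, a near copy of Atp5l, had 1 read in B7 and the pseudogene Atp5l-ps1 was at 0. Atp5s, under the filter, had 16.9 and 9.76 against 3.72 and 4.46, and Atp5sl had a log2 difference of -0.13 ± 0.66.

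**Figure D3:**
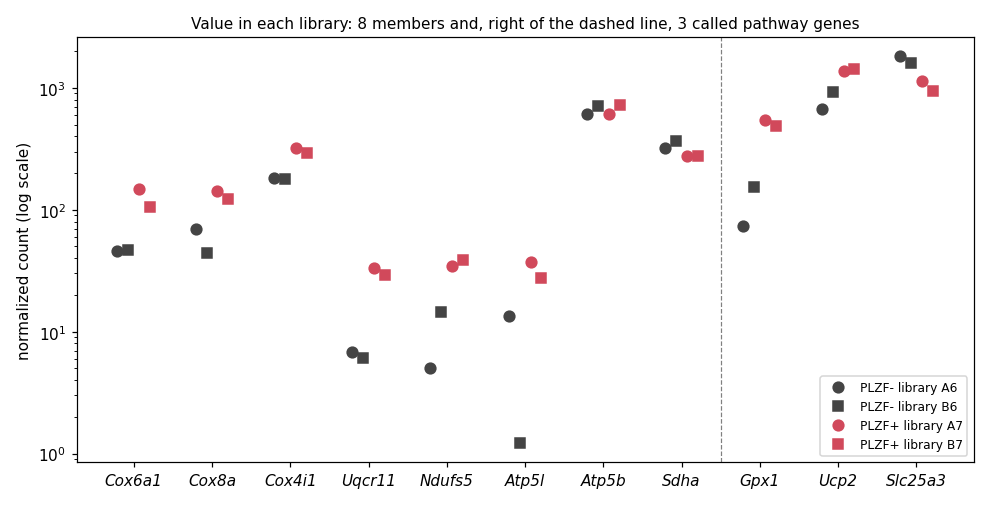
Normalized counts (log scale) in each library for 8 subunit genes and, right of the dashed line, for 3 other mitochondrial genes that passed the test. Cox6a1, Cox8a, Cox4i1, Uqcr11, Ndufs5 and Atp5l have both PLZF+ libraries above both PLZF- libraries, Atp5b overlaps and Sdha is the reverse.

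Many subunits of the respiratory chain are very small proteins with short transcripts, and the differences moved with transcript length. The relation was looked at after the values were seen, with the median GENCODE M21 transcript length of each gene. The 24 tested rows under 600 bases had a median log2 difference of 1.05, and 20 of them (83.3%) had both PLZF+ libraries above both PLZF- libraries. Rows from 600 to under 1000 bases (23) had a median of 0.68, those from 1000 to under 2000 (23) 0.36, and those of 2000 and over (10) 0.06. All tested rows had medians of 0.76, 0.46, 0.10 and -0.12 in the same ranges, and 72.8% of the 114 rows under 600 bases had both PLZF+ libraries above. All tested rows include the set, which holds 24 of those 114 and 20 of the 83 with both PLZF+ libraries above. In each range the median of the set was above that of all tested rows, by less than the gap between 0.62 and -0.02 seen without regard to length. The median length was 800 bases in the set and 2811 over all tested rows. Complexes III and IV, with the highest medians, also had the shortest rows (535 and 626 bases), and complex II the longest (1231).

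Across the 80 rows, length and log2 difference had a Spearman rho of -0.55, and across 8488 tested rows with a length -0.18. These are correlations across genes that share the 4 libraries and they carry no p-value. By single pairs of libraries rho was -0.41 for A7 against A6, -0.59 for A7 against B6, -0.23 for B7 against A6 and -0.44 for B7 against B6. Between libraries of one subset, rho over the 80 rows was -0.31 for A7 minus B7 and -0.18 for A6 minus B6, where the order of the 2 pools, and so the sign, is arbitrary. In size the first of these exceeded the value for B7 against A6. The part of transcript length, of depth and of library preparation in the difference between subsets was not tested.

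**Figure D4:**
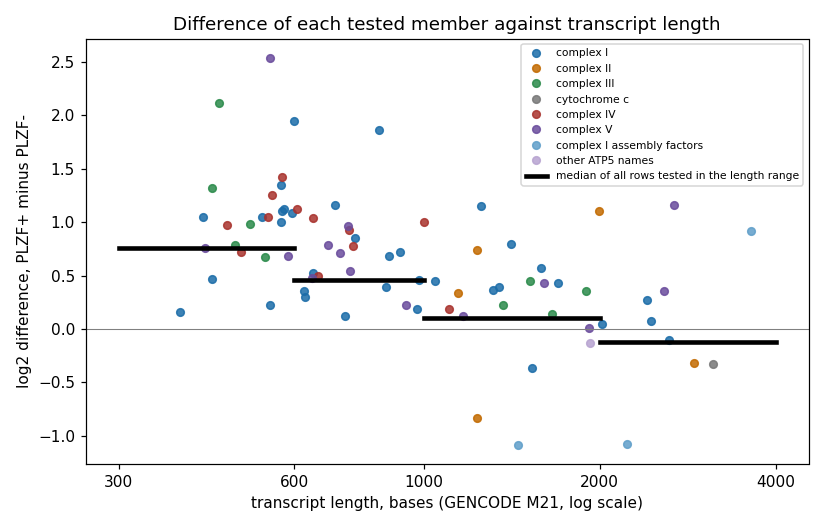
Log2 difference of the 80 tested rows (vertical axis) against transcript length in bases (log axis), coloured by complex, with bars at the median of all tested rows in 4 length ranges, the outer ranges being under 600 and 2000 or more bases. Short rows lie highest, and the bars fall from 0.76 to -0.12.

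The FPKM table gave more calls than the normalized counts did. With the same limma fit on log2(FPKM + 1), 7 of the 80 rows were higher in PLZF+ cells at an adjusted p under 0.05, against 1.9% of all tested rows, and 0 lower, against 3.33%. They were Uqcr11 (log2 difference 2.37 ± 0.30, adjusted p = 0.0036), Cox6c, Cox6a1, Cox8a, Cox7c, Ndufs5 and Uqcr10, all with transcripts of 606 bases or less. Uqcr11 had 19.7 and 28.0 FPKM in PLZF- and 127 and 123 in PLZF+ libraries. Cox6a1 had 118 and 125 FPKM against 353 and 266 (1.33 ± 0.23, adjusted p = 0.014). At an unadjusted p under 0.05, 32 of 80 were higher on this scale, against 9.04% of all tested rows, and 0 lower, against 10.1%. For Uqcr11 the SE was 0.81 on the normalized counts and 0.30 on this scale. Its PLZF- values rest on an estimated 4 reads in A6 and 5 in B6, and those of Ndufs5 on 3 and 12. FPKM divides by length and does not show how few reads lie under a value.

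Other mitochondrial genes were taken from 13 lists, with 140 tested rows. Of these, 2 were higher (2.6% of all tested rows were) and 1 was lower (4.8%), and the median log2 difference was 0.23. Both PLZF+ libraries lay above both PLZF- libraries in 46 of the 140, against 24.1% of all tested rows, and below in 27, against 27%. Gpx1, a glutathione peroxidase that removes hydrogen peroxide, rose from 74.2 and 154 normalized counts in the PLZF- pair to 548 and 488 in the PLZF+ pair (log2 difference 2.26 ± 0.33, adjusted p = 0.00071, limma). Ucp2, an inner-membrane carrier of the uncoupling protein family, rose from 675 and 918 to 1381 and 1417 (0.83 ± 0.20, adjusted p = 0.019). Slc25a3, which imports the phosphate that complex V joins to ADP, fell from 1820 and 1588 to 1132 and 938 (-0.72 ± 0.18, adjusted p = 0.025). In each of these 3 genes the subsets were well apart. Each call was lost without PLZF+ library A7 (adjusted p 0.064, 0.30 and 0.19 for Gpx1, Ucp2 and Slc25a3) or B7 (0.059, 0.34 and 0.45), and also without the trend and robust moderation (0.13, 0.36 and 0.40). Those of Ucp2 and Slc25a3 were lost without A6 too (0.095 and 0.12). The authors' deposited table gave a q of 0.021 for Gpx1, 0.045 for Ucp2 and 0.13 for Slc25a3. The adenine nucleotide carrier Slc25a5, which exchanges ATP for ADP, had 260 and 407 against 468 and 552 (0.64 ± 0.26, adjusted p = 0.18).

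The subunits encoded in mitochondrial DNA were held in only 2 of the rows found, each joining several transcripts. The row with cytochrome b stood at 1174 and 1636 normalized counts in the PLZF- pair and at 1595 and 1499 in the PLZF+ pair (log2 difference 0.16 ± 0.19, adjusted p = 0.69). The row that joins subunits of complexes I, IV and V had 7549 and 10080 against 8698 and 9656 (0.07 ± 0.15, adjusted p = 0.83). In both the PLZF+ libraries lay between the PLZF- libraries. The 95% interval was -0.25 to 0.56 in the first row and -0.24 to 0.39 in the second.

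Genes that build or regulate the complexes did not share one direction. The list of complex V assembly genes had the highest median, 1.47 over 6 rows, but also held the inhibitor Atpif1, the synthase subunit Usmg5 and 2010107E04Rik. In 4 of the 6 both PLZF+ libraries lay above both PLZF- libraries, against 24.1% of all tested rows. Its assembly factors pointed both ways: the log2 difference was 2.47 in Atpaf1, with 0 in B6, -0.13 in Atpaf2 and -0.21 in Tmem70. Atpif1, which blocks the synthase from running in reverse, had 5.06 and 13.4 against 36.5 and 37.4 normalized counts (log2 difference 2.02 ± 0.76, adjusted p = 0.15). Usmg5, a small synthase subunit, had 8.44 and 23.2 against 61.9 and 38.0 (1.71 ± 0.67, adjusted p = 0.17). Both have short transcripts, of 500 and 362 bases. Complex IV assembly factors had a median of 0.57 over 20 rows, mitochondrial import 0.44 over 18, and the citric acid cycle with pyruvate dehydrogenase 0.28 over 23. Coenzyme Q and supercomplex genes had a median of -0.14 over 15 rows. Both PLZF+ libraries lay below both PLZF- libraries in 7 of these rows, 2 of them of Coq10b, against 27% of all tested rows, and above in 3, against 24.1%.

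Regulators of mitochondrial biogenesis had a median below 0. Of 19 tested rows, of 18 genes, 4 had a log2 difference above 0, the median was -0.33, 8 (of 7 genes) had both PLZF+ libraries below both PLZF- libraries, against 27% of all tested rows, and 0 had both above, against 24.1%. In limma 0 passed in either direction, with 5 rows lower, 2 of them of Gabpb1, and 0 higher at an unadjusted p under 0.05 (11.8% and 8.48% of all tested rows), and 0 had a q under 0.05 in the authors' deposited table. The 3 with the smallest p were Gabpb2 and Gabpb1, partners of the DNA-binding subunit of GABP, and Polg, the mitochondrial DNA polymerase. Gabpb2 stood at 268 and 306 normalized counts in the PLZF- pair and at 196 and 145 in the PLZF+ pair (-0.76 ± 0.28, adjusted p = 0.14). Gabpb1 was deposited as 2 rows, one with 209 and 198 against 136 and 117 (-0.68 ± 0.30, adjusted p = 0.21) and the other with 69.2 and 52.4 against 27.9 and 21.2 (-1.27 ± 0.53, adjusted p = 0.19). Polg had 60.7 and 66.2 against 13.6 and 34.0 (-1.51 ± 0.58, adjusted p = 0.16). The subsets did not overlap in any of these 3. The median transcript length was 2682 bases in this list, against 800 in the subunit set.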

How the data were processed

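Gene expression was measured by SMARTseq2 in 4 libraries. Per the submitters' processing notes, reads were handled with HISAT 0.1.6, SAMtools 1.2, Cufflinks 1.2 and Cuffdiff on mm10. Annotation and strand setting were not given in the sources used here: reads of overlapping or antisense genes, and of near-identical copies of short subunit genes, may be misassigned. The authors deposited Cuffnorm normalized counts (a signal, and not raw counts), Cuffnorm FPKM, and a Cuffdiff table, from which the deposited p-value and q-value columns were read. Low values rose in steps of 1.69 (A6), 1.22 (B6), 0.619 (A7) and 0.558 (B7), taken as 1 read, with 92.4% to 94.3% of values within 0.05 of a whole number of reads. Totals of named rows divided by these steps are the estimated reads. They leave out Rn45s, an rRNA precursor listed at 0 in B7 and at 26.8% to 33.2% of the total elsewhere. The deposited counts did not pass as recovered whole reads, so no count model was run.

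Rn45s and the 1232 rows with no gene name (1.82% to 3.22% of totals) were left out of the test. Rows averaging 10 or more normalized counts were fitted with limma 3.58.1 in R 4.3.3, with trend and robust moderation, two-sided, on log2(normalized count + 1), without covariates, and adjusted by Benjamini-Hochberg over 9197 rows at 0.05. Fold changes on this scale understate the change of low rows. The fit was tested on simulated data, where it called 12 of 8997 unchanged rows. Exact intervals of read ratios are 95% Poisson intervals with the depths taken as known. Transcript lengths came from GENCODE M21, which gave one for 95 of the 97 rows and 92.3% of tested rows, and promoter windows from RefSeq. Figures were drawn with matplotlib 3.10.9, and correlations and exact intervals came from scipy 1.17.1 in Python 3.11.15.

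The genes, lists and tests were chosen with earlier results of these data known. Named are, in each complex, the transcript of highest mean FPKM, the 3 smallest p-values, core complex I subunits, the succinate dehydrogenase, cytochrome c, complex III core, alpha, beta and c-ring genes and the complex IV isoform pairs, and in the other lists genes past the threshold and up to 3 of the smallest p-values. Of the 97 rows, Cyc1 and Atp5j2 also name a second transcript. The deposited intervals of Atp5d and Ndufs7 are shared by 57 named rows. One gene is counted in the totals and not reported here by itself. Alternatives were other pseudocounts, filters, scalings and moderation, the FPKM table, the letter of the column code as a term, rows naming 1 gene, rows of one name summed, and each library left out.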

Additional observations from a re-analysis of the deposited data

How the results depend on the processing

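The subunit rows had a log2 difference above 0 in 64 to 73 of 80 rows under every setting that kept all 80, and 0 rows were lower under any setting. The number called higher, 0, became 1 with a pseudocount of 4, with median-ratio scaling and with equal totals, 2 with a minimum mean of 50 and with the letter of the column code as a term, and 7 with the FPKM table. It was 0 to 1 with single libraries left out, the 1 being Ndufb9 without PLZF- library B6. Cox6a1 was among the calls in the first 6 of these settings, with adjusted p from 0.013 to 0.047. The smallest adjusted p of the set was 0.40 without A7 and 0.26 without B7. The 2 higher calls of the other lists became 1 with no filter and with the FPKM table, 0 without trend and robust moderation, and 0 to 4 with single libraries left out. The 1 lower call became 0 with no filter, equal totals, the FPKM table, no trend and robust moderation and the authors' Cuffdiff calls, and 0 to 2 with single libraries left out. The complex I median became 0.57 with equal totals and 0.28 to 0.62 with libraries left out. The complex IV median became 0.93 with a pseudocount of 4 and with the FPKM table, 1.09 with equal totals and 0.73 to 1.15 with libraries left out. With libraries left out the complex II median ran from -0.28 (without A6, a change of sign) to 0.51, that of complex III from 0.45 to 0.70 and that of complex V from 0.39 (without A6) to 0.90. With a minimum mean of 50 the complex III median was 0.35 and that of complex V 0.45. The median of the set became 0.46 with a minimum mean of 50 and 0.40 to 0.75 with libraries left out. With FPKM rescaled to equal totals the summed FPKM ratios became 1.23 (complex I), 1.31 (III), 1.46 (IV), 1.18 (V) and 1.26 (all). One row, 9230102K24RIK, holds 30.6% of the FPKM total of A7 and sets that rescaling. With libraries left out, the ratio was 1.39 to 1.82 in complex I and 0.828 to 1.29 in complex II. The length correlation became -0.36 without B6. Over all tested rows the 239 higher and 441 lower calls became 123 and 265 with no filter and 26 and 148 without trend and robust moderation, and 409 were higher with the letter of the column code as a term. With single libraries left out the higher calls ran from 23 (without B7) and 30 (without A7) to 370 (without B6). The cause of these changes was not tested, except that leaving out a library or raising the filter lowers the number of samples or rows by construction. Count models were planned and not run, since the deposited counts are normalized. No paired analysis was possible because the columns carry no replicate number and no label says what their codes share, so the fit with the letter of the code rests on an unexplained code. The depth limits rows of a few reads in A6 and B6, among them Uqcr11, Ndufs5 and Atp5l.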
